A study of Homo sapiens with 22 samples.

Results

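A set of 10 genes of glucose uptake and glycolysis was followed through the reprogramming of human fibroblasts to pluripotency by RNA transfection. They are the glucose transporter genes SLC2A1 and SLC2A3, the hexokinase genes HK1 and HK2, PFKP, PGK1, ENO1, PKM and the lactate dehydrogenase subunit genes LDHA and LDHB. The 10 genes were chosen by symbol from the genes of the count tables, and all 10 passed the filter on low values that left 12794 genes to test. The cells were BJ cells, an established line of human newborn foreskin fibroblasts, grown in microfluidic chambers on chips and studied as 1 line. The D0 cells were untransfected controls harvested before the first transfection. Cells of D3, D5, D7, D9, D11, D13 and D15 had received messenger RNA for the reprogramming factors, with the last transfection on day 8. The factors named in the paper are MYC, POU5F1, SOX2, KLF4, NANOG and LIN28. Each day had 2 pools of cells, A and B (n = 2), and each pool joined the cells of 4 chips. The fibroblasts were kept in serum medium (DMEM), the transfected cells in Pluriton medium up to day 8 and in StemMACS iPSBrew XF medium from day 9, and the study's methods place the whole process in a hypoxia incubator at 5% oxygen. Whether the D0 cells were also kept at this oxygen level is not given in the sources used here. The start of transfection, the first change of medium and any change of oxygen after D0 cannot be told apart in these samples, nor can the end of transfection and the second change of medium. Levels are given as CPM, the unique molecular identifiers (UMIs) counted for a gene, scaled by the sum of all UMIs over the cells of a pool.

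Glucose enters cells through carriers of the SLC2A (GLUT) family, is phosphorylated by hexokinases and is split and oxidised to pyruvate by the enzymes of glycolysis. Lactate dehydrogenase interconverts pyruvate and lactate as a tetramer of A and B subunits, of which the A subunit is best known from muscle and glycolytic tissue and the B subunit from heart and other oxidative tissue. Pluripotent stem cells are known for high rates of glycolysis, and a change of energy metabolism is a known early part of reprogramming. The hypoxia-inducible factors and MYC are known regulators of many of these genes, and act through the letters ACGTG or GCGTG (the hypoxia response core) and CACGTG (the E-box).

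The sequences upstream of the starts of LDHA, LDHB and SLC2A1 are shown because the comparisons below turn on these genes. They are the 250 bases before the start in RefSeq (GRCh38.p14), written from 5′ to 3′ on the strand of the gene. Capitals mark ACGTG or GCGTG on either strand, so that CACGT and CACGC are also in capitals, and CACGTG overlaps ACGTG on both strands.
LDHA, chr11:18394313-18394562, plus strand: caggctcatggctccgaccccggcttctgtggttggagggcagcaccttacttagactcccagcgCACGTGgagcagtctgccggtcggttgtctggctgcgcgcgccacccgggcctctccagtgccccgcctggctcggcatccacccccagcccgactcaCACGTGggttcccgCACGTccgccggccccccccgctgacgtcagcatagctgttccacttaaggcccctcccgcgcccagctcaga
LDHB, chr12:21657843-21658092, minus strand: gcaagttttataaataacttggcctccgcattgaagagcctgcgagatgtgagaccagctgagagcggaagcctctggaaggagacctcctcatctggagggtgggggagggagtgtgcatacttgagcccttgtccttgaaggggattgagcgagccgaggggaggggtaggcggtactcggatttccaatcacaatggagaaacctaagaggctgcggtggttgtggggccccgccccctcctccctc
SLC2A1, chr1:42958869-42959118, minus strand: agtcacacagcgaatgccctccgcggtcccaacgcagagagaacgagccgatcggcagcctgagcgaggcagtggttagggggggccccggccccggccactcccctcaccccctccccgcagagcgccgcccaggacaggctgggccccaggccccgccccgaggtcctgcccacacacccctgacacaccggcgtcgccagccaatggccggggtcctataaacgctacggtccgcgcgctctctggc
The LDHA window held 3 stretches in capitals, 2 of them with CACGTG, and the windows of LDHB and SLC2A1 held none. RefSeq starts were found for 9 of the 10 genes (not for SLC2A3), with 20 starts in all. Of these 20 windows, 9 held ACGTG or GCGTG and 2 held CACGTG, 1 of HK2 and 1 of LDHA. Among the 35116 windows of the same length in the table, 43.2% held ACGTG or GCGTG and 6.35% held CACGTG. The windows of HK2 (2 of 2), LDHA (2 of 2), PGK1 (1 of 1), ENO1 (1 of 1), PFKP (2 of 4) and HK1 (1 of 7) had a match, and those of PKM (0 of 1), LDHB and SLC2A1 had none. A match is a run of letters and not a bound site.

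The 22 libraries held 44197 barcodes, of which 41975 were kept as cells. Between 33181614 and 180056814 UMIs were summed per pool, so that counting error was small for all members except HK2. Barcodes shared between libraries numbered 1213 over 231 pairs, against 1221.9 by chance. The 14 fibroblast markers summed to 12508 and 12302 CPM in the D0 pools, where the 14 developmental markers summed to 46.8 and 47.5 CPM. In D15 the developmental markers reached 5565 and 5280 CPM and the fibroblast markers 1748 and 2180 CPM. The 2 pools of D13 stood apart from each other. Of the 10 members, 9 were higher in pool A, with a median gap of 1.93-fold and a gap of 2.96-fold for PKM, and pool B had a lower median depth per cell (35610 against 54703 UMIs) and a higher median share of mitochondrial UMIs (5.49% against 3.55%). On D0 and D9 the median gap between pools was 1.05-fold and 1.04-fold. In the 6 pools that were captured as 2 aliquots, aliquots differed by up to 2.33-fold in PKM (D5 pool A, where the second aliquot held 261 cells), and the median gap ranged from 1.04-fold (PFKP) to 1.42-fold (HK1). The part of depth and RNA quality in the results was not tested.

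Of the 10 members, 5 differed among the 8 days at an adjusted p below 0.01 (edgeR's quasi-likelihood F test with Benjamini-Hochberg adjustment over all genes), where 57.5% of all tested genes did. These were SLC2A3 (adjusted p = 7.7e-08), HK2 (5.6e-05), SLC2A1 (0.00011), HK1 (0.00023) and LDHA (0.0082). PFKP, PGK1, ENO1, PKM and LDHB did not pass (adjusted p = 0.17, 0.14, 0.029, 0.29 and 0.036, the same edgeR test). From one sampled day to the next, 6 of 70 tests of members were called, with an adjusted p under 0.01 and a change of over 0.25 on the log2 scale, where 6.13% of all such tests over genes and intervals were called. All 6 fell in the interval from D0 to D3 (4 calls) or from D7 to D9 (2 calls), and the 6 became 3 without D0 pool A, D0 pool B, D9 pool A or D9 pool B in the fit. In sums over a whole pool, fewer cells of a type and less RNA per cell cannot be told apart.

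**Figure D1:**
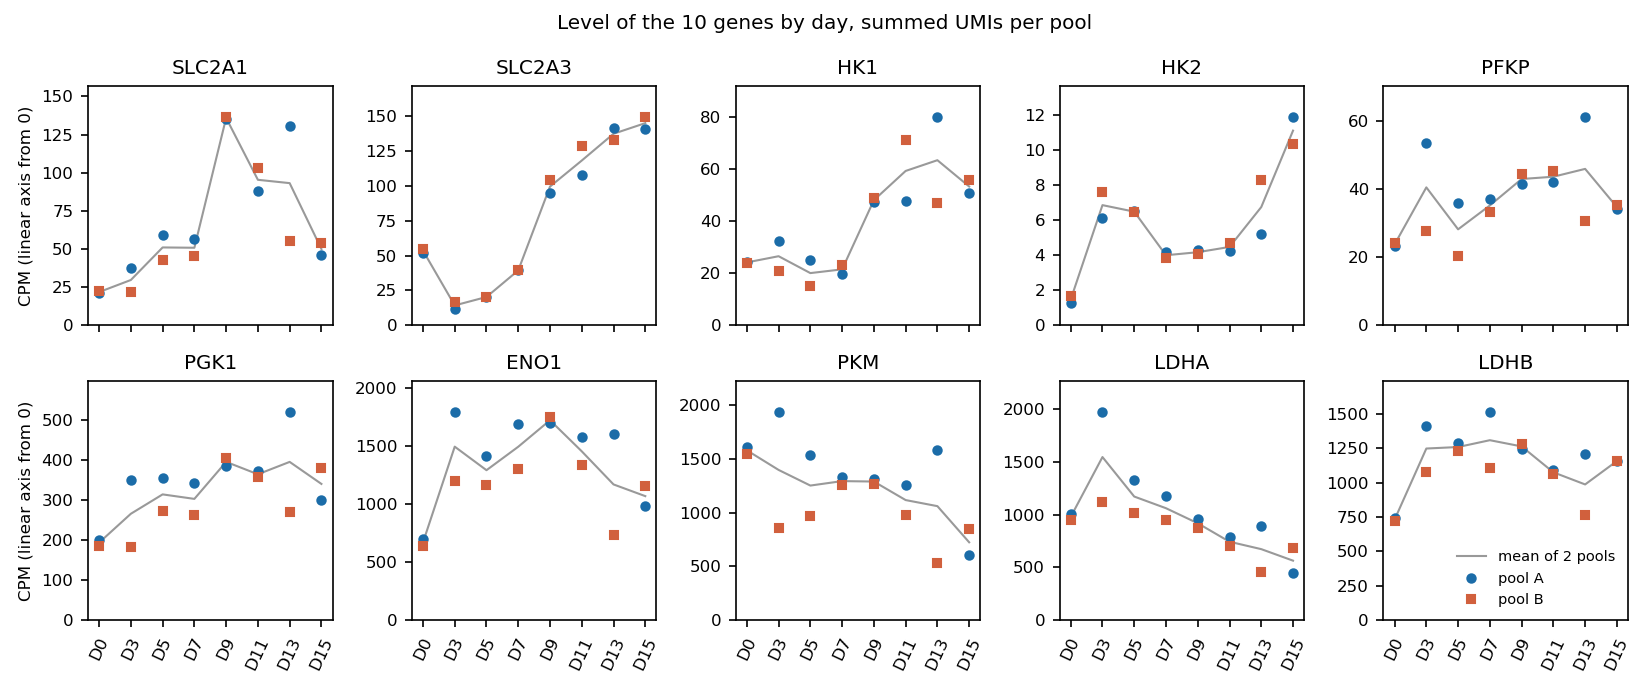
CPM of each of the 10 genes (linear axes from 0) against day, with pool A as circles, pool B as squares and the mean of the 2 pools as a line. SLC2A1 was highest on D9 at 135 and 136 CPM, SLC2A3 dipped on D3 to 11.5 and 16.8 CPM and was at 141 and 149.5 CPM on D15, and the pools of D13 lay far apart for PKM at 1583 and 535 CPM.

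SLC2A1 (GLUT1, ENSG00000117394, chromosome 1 of GRCh38, 42925353 to 42958893) encodes the carrier of basal glucose uptake in many cells. It was at 21.26 and 22.04 CPM in pools A and B of D0, at 37.3 and 21.9 on D3, at 58.9 and 42.9 on D5, and at 56.4 and 45.0 on D7. It then stood at 135 and 136 on D9, 87.9 and 103 on D11, 131 and 55.4 on D13, and 46.2 and 53.6 on D15. SLC2A1 was thus highest on D9, when both pools lay above every earlier pool, and the pools of D15 fell back into the range of D5 and D7. It rose from D7 to D9 by a log2 fold change of 1.38 (SE 0.30, adjusted p = 0.0085, edgeR), in an interval where 7.37% of all genes were called and 4.59% were called higher. It fell from D9 to D15 (−1.38, SE 0.30, adjusted p = 0.0041, edgeR) and was higher on D15 than on D0 (1.14, SE 0.30, adjusted p = 0.0049, edgeR). The call from D7 to D9 was lost with total UMIs as the scale (adjusted p = 0.018) and when any of 12 of the 16 pools was left out, those of D3 and D13 excepted (0.012 to 0.11, edgeR). The fall from D9 to D15 was lost without any 1 of the 4 pools of those days (0.021 to 0.048), and so was the call between D0 and D15 (0.013 to 0.034, edgeR).

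SLC2A3 (GLUT3, ENSG00000059804, chromosome 12, 7919230 to 8019007) encodes a carrier of high glucose affinity, best known from neurons. It was at 52.2 and 55.0 CPM on D0, 11.5 and 16.8 on D3, 20.1 and 20.3 on D5, and 39.4 and 39.3 on D7. It then stood at 95.2 and 104 on D9, 108 and 129 on D11, 142 and 133 on D13, and 141 and 149.5 on D15. The D0 pools lay above all pools of D3 to D7, and every pool from D9 on lay above D0. SLC2A3 fell from D0 to D3 (−1.94, SE 0.19, adjusted p = 1.9e-05, edgeR), where 25.6% of all genes were called, 13.1% higher and 12.6% lower. It rose from D7 to D9 (1.30, SE 0.19, adjusted p = 6.6e-04, edgeR) and was higher on D15 than on D0 (1.38, SE 0.19, adjusted p = 3.9e-05, edgeR). Between D9 and D3, SLC2A1 and SLC2A3 were the 2 members called, both higher (log2 fold changes of 2.12 and 2.71), where 22.9% of all genes were called and 11.8% were called higher. SLC2A14, a close copy of SLC2A3 on the same chromosome, had 0.0240 and 0.0204 CPM on D0 and 4.01 and 4.37 CPM on D15. Reads that fit both copies equally well could be lost or split in the counting, so the split between SLC2A3 and SLC2A14 is uncertain.

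HK1 (ENSG00000156515, chromosome 10, 69269984 to 69401884) and HK2 (ENSG00000159399, chromosome 2, 74834127 to 74893359) encode the hexokinases that trap glucose in the cell as glucose 6-phosphate. HK1 was at 24.2 and 23.9 CPM on D0 and between 15.1 and 32.1 CPM in the pools of D3 to D7. From D9 on, all 8 pools lay between 46.8 and 79.9 CPM, above every earlier pool. How many other genes separate these pools in this way was not counted. The rises of HK1 from D7 to D9 (1.13, SE 0.26, adjusted p = 0.012, edgeR) and from D3 to D9 (0.78, SE 0.26, adjusted p = 0.036, edgeR) missed the threshold. HK1 was higher on D15 (50.7 and 55.8 CPM) than on D0 (1.08, SE 0.26, adjusted p = 0.0029, edgeR), a call lost without D0 pool A, D0 pool B or D15 pool B (0.019 to 0.025). HK2 was at 1.26 and 1.66 CPM on D0, 6.09 and 7.61 on D3, 6.49 and 6.46 on D5, and 4.15 and 3.83 on D7. It then stood at 4.28 and 4.04 on D9, 4.23 and 4.70 on D11, 5.18 and 8.30 on D13, and 11.9 and 10.3 on D15. HK2 had its 2 rises at the ends of the time course, with D0 below and D15 above all other pools. It rose from D0 to D3 (2.21, SE 0.28, adjusted p = 7.9e-05, edgeR) and from D9 to D15 (1.48, SE 0.27, adjusted p = 0.0013, edgeR), where 21.0% of all genes were called. From D0 to D15 its log2 fold change was 2.87 (SE 0.28, adjusted p = 2.0e-06, edgeR), and SLC2A1 and HK2 were the 2 members called between D9 and D15. The HK2 call of that interval was lost without D9 pool A, D9 pool B or D15 pool A (adjusted p = 0.013 to 0.018, edgeR).

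PFKP (ENSG00000067057, chromosome 10, 3066333 to 3137718) encodes the platelet type of phosphofructokinase, the enzyme of the committed step of glycolysis. PFKP was at 23.2 and 24.3 CPM on D0 and between 20.5 and 61.2 CPM later, and none of its 10 comparisons of days was called. PGK1 (ENSG00000102144, chromosome X, 77910739 to 78129295), which encodes the phosphoglycerate kinase of the first ATP-forming step, was at 201 and 186 CPM on D0, at 182 CPM in D3 pool B and between 263 and 519 CPM in the other pools. Its log2 fold change from D0 to D15 was 0.75 (SE 0.28, adjusted p = 0.034, edgeR) and missed the threshold. ENO1 (ENSG00000074800, chromosome 1, 8861000 to 8879190) encodes alpha-enolase. ENO1 stood at 699 and 640.3 CPM on D0 and at 1793 and 1199.7 CPM on D3, and rose in that interval (1.12, SE 0.27, adjusted p = 0.0065, edgeR). Every later pool lay above D0 too, the lowest being D13 pool B at 734 CPM. The call of ENO1 from D0 to D3 was lost without D0 pool A, D0 pool B or D3 pool A. Its log2 fold change was then 1.21, 1.03 and 0.86. The call was also lost without D9 pool A or D9 pool B in the fit. PKM (ENSG00000067225, chromosome 15, 72199029 to 72231819) encodes pyruvate kinase of muscle and embryonic type. PKM was at 1612 and 1543 CPM on D0, at 1931 and 859.9 CPM on D3 and at 602 and 844 CPM on D15. The log2 fold change of PKM from D0 to D15 was −1.19 (SE 0.41, adjusted p = 0.022, edgeR), short of the threshold. The M1 and M2 forms of PKM differ by an internal exon and are counted together here.

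LDHA (ENSG00000134333, chromosome 11, 18394560 to 18408425) encodes the A subunit. It was at 1002 and 952 CPM on D0, 1968 and 1120.3 on D3, 1328 and 1012 on D5, and 1172 and 948 on D7. It then stood at 961 and 874 on D9, 785 and 700.3 on D11, 889 and 456 on D13, and 445 and 681 on D15. After D3 the mean of the 2 pools was lower on each day than on the sampled day before, and both pools of D11, D13 and D15 lay below both pools of D0. LDHB (ENSG00000111716, chromosome 12, 21635342 to 21757857) encodes the B subunit. It was at 743 and 717 CPM on D0, 1414 and 1080.0 on D3, 1286 and 1230.3 on D5, and 1511 and 1105 on D7. It then stood at 1246 and 1279 on D9, 1090.0 and 1059 on D11, 1207 and 765 on D13, and 1157 and 1156 on D15. Every later pool of LDHB lay above D0, with D13 pool B close to it. LDHB rose from D0 to D3 (0.73, SE 0.19, adjusted p = 0.0091, edgeR), a call lost when any of 12 of the 16 pools was left out, those of D7 and D13 excepted (0.010 to 0.073). Between D0 and D15 neither subunit passed (LDHA −0.86, SE 0.29, adjusted p = 0.022; LDHB 0.60, SE 0.19, adjusted p = 0.015; edgeR). LDHA, LDHB, PGK1 and ENO1 have near-identical processed copies elsewhere in the genome, and reads that fit such a copy could be lost, so their absolute levels are uncertain.

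In the comparison of D3 with D0, 4 members were called, of which HK2, ENO1 and LDHB rose and SLC2A3 fell, where 25.6% of all genes were called, 13.1% higher and 12.6% lower. The median log2 fold change of the 10 members was 0.51, against −0.06 over all genes, but 0.13 without D3 pool A and 0.81 without D3 pool B. With total UMIs in place of TMM as the scale, the calls of ENO1 (adjusted p = 0.010) and LDHB (0.013) were lost (edgeR), and without D0 pool A, D0 pool B, D3 pool A, D9 pool A or D9 pool B in the fit the count was 2. Between D15 and D0, 4 members were called, SLC2A1, SLC2A3, HK1 and HK2, all higher, where 53.4% of all genes were called, 26.8% higher and 26.7% lower. The median over members was 0.68, against 0.01 over all genes. A p that missed the threshold does not show that a gene stayed level. Leaving out D0 pool A, D0 pool B or D15 pool B lowered this count to 2, and leaving out D13 pool A raised it to 7. Between D15 and D9 the count of 2 became 0 without D9 pool A, D9 pool B or D15 pool A and 1 without D15 pool B. Other measures moved over the same days. Of 10 genes of dividing cells, 4 were called higher on D3 and 7 on D15 against D0, and their sum went from 603 and 606 CPM on D0 to 1022 and 980.2 CPM on D3 and 1766 and 1429 CPM on D15. Of 9 stress genes, 3 were called lower on D3 and 4 on D15, with sums of 1277 and 1318 CPM on D0, 464 and 469.8 CPM on D3 and 254 and 226 CPM on D15. The median share of mitochondrial UMIs was 2.96% and 3.33% on D0, 2.67% and 4.41% on D3 and 5.69% and 6.22% on D15. Of 3 tested mesendoderm markers, 1 was called higher on D3 and 3 on D15 against D0. The part of these measures in the changes of the members was not tested.

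In 3 cases a pair of the genes encodes alternative forms of 1 function, and its ratio within a pool does not depend on how pools are scaled. Since the level of 1 gene against another also depends on how well each is captured, only changes of a ratio are compared. The 4 days D0 to D7 were compared with the 4 days D9 to D15 by a two-sided exact permutation test over the day means, whose 70 splits allow no p below 0.0286.

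The ratio of SLC2A3 to SLC2A1 changed course. In the order pool A, pool B it was 2.45 and 2.50 on D0, 0.309 and 0.766 on D3, 0.341 and 0.474 on D5, and 0.698 and 0.873 on D7. It then was 0.704 and 0.762 on D9, 1.23 and 1.26 on D11, 1.08 and 2.41 on D13, and 3.05 and 2.79 on D15. SLC2A3 thus had more UMIs than SLC2A1 on D0, fewer in all 8 pools of D3 to D9, and more again in all 6 pools from D11 on. The log2 ratio of the late days exceeded that of the early days by 0.88, and the difference did not pass the exact permutation test (p = 0.286, adjusted over the 3 ratios 0.371).

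The ratio of LDHB to LDHA moved in 1 direction. It was 0.741 and 0.753 on D0, 0.719 and 0.964 on D3, 0.968 and 1.22 on D5, and 1.29 and 1.17 on D7. It then was 1.30 and 1.46 on D9, 1.39 and 1.51 on D11, 1.36 and 1.68 on D13, and 2.60 and 1.70 on D15. The mean log2 ratio of the 2 pools was higher on each sampled day than on the day before, from −0.42 on D0 to 1.07 on D15, while the pools of neighbouring days overlapped in 4 of the 7 intervals. The 8 late pools all lay above the 8 early pools, narrowly between D7 pool A (log2 ratio 0.367) and D9 pool A (0.375). The late days exceeded the early days by 0.73 on the log2 scale (1.66-fold, exact permutation p = 0.0286, the smallest that the design allows, adjusted over the 3 ratios 0.0857). The days are ordered points of 1 course, and any steady rise gives this p at a middle cut. The p thus restates the rise and places no shift between D7 and D9.

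The ratio of HK2 to HK1 was lowest on D0, highest on D5, and higher on D15 than on D9, D11 and D13 in the day means. Its mean over the 2 pools of a day on the log2 scale started at −4.06 in D0, stood at −1.92, −1.58 and −2.42 in D3, D5 and D7, and was −3.53, −3.70, −3.22 and −2.26 in D9, D11, D13 and D15. The late days together fell by 0.68 on the log2 scale against the early days, an average over moves in both directions that did not pass the test (exact permutation p = 0.371, adjusted 0.371).

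**Figure D2:**
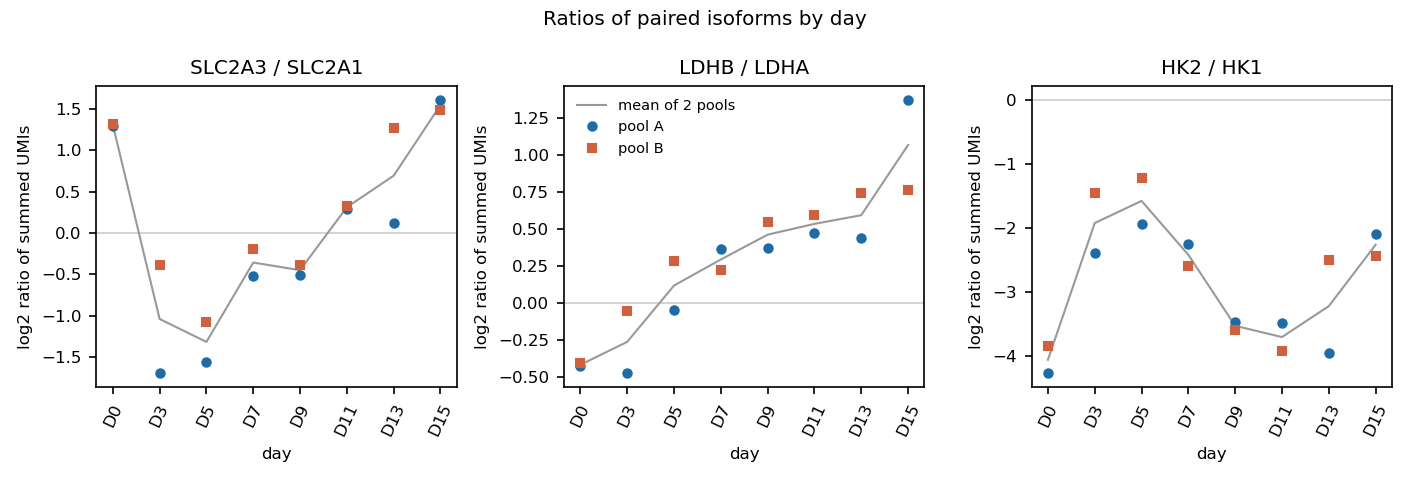
Log2 ratio of summed UMIs for SLC2A3 over SLC2A1, LDHB over LDHA and HK2 over HK1 (vertical axes) against day, with pool A as circles, pool B as squares and their mean as a line. The LDHB to LDHA mean climbs from −0.42 on D0 to 1.07 on D15, and the SLC2A3 to SLC2A1 mean dips below 0 from D3 to D9.

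The LDH subunits could also be read within single cells. Cells were thinned to 5000 UMIs, and those with at least 10 LDHA and LDHB UMIs together were counted. The median share of LDHB among these UMIs was 40.0% and 38.9% in the pools of D0 (2391 of 6142 and 1623 of 4634 cells counted), 56.3% and 60.0% on D9, and 72.7% and 60.0% on D15 (211 of 571 and 921 of 2108 cells). Cells with more LDHB than LDHA UMIs after thinning made up 20.8% and 19.7% of those counted on D0. They made up 57.8% and 64.3% on D9 and 78.7% and 64.9% on D15. With so few UMIs a cell, counting error widens the spread between cells, so this spread is not read here.

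On D9 to D15 each pool held cells with fibroblast transcripts and cells with developmental transcripts. The share of RNA from outside the cells (background) was not estimated. Each cell was thinned to 5000 UMIs and placed on the developmental side where it had a UMI of at least 3 more of the 14 developmental than of the 14 somatic markers, and on the somatic side in the opposite case. These sides are ranges of a score and not cell types, and none of the 10 members is among the markers. The developmental side held 24.1% and 25.4% of cells on D9 and 86.5% and 80.3% on D15, and in D0, D3 and D5 it held 0 of the cells in all 6 pools. The sides were compared within pools, in the 7 pools with at least 50 cells on each side (D15 pool A had 49 somatic cells and was left out). The summed UMIs of the 7 pools were compared with edgeR with the pool as a block.

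Of the 10 members, 9 were called between the sides, 7 higher and 2 lower on the developmental side, where 70% of all 12766 genes tested were called, 35.0% higher and 35.0% lower. Over the members the median log2 difference was 0.46, against 0.01 over all genes. The sides differed in much else as well. Markers of dividing cells summed to 1441 to 1779 CPM on the developmental side and 397 to 783 CPM on the somatic side, and were all 10 higher, stress genes to 139 to 238 CPM against 230 to 548 CPM, and the median depth per cell was higher on the developmental side in every pool (71212 against 50222 UMIs in D9 pool A). Fibroblast markers on the somatic side summed to 9131 and 8816 CPM on D9, below the D0 pools. They summed to 12900 to 19974 CPM on D11 and D13 and 15186 CPM in D15 pool B, above the D0 pools. Mesendoderm markers were higher on that side in D11 A (138 against 77.5 CPM) and on D13 (116 against 52.0 and 118 against 89.6). They were lower there in D9 A, D9 B, D11 B and D15 B, and 0 of 3 tested were called. The part of these differences in the results was not tested.

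HK1 had the largest difference among the members. HK1 was at 74.1, 71.3, 63.2, 96.6, 101, 51.6 and 58.5 CPM on the developmental side of D9 A, D9 B, D11 A, D11 B, D13 A, D13 B and D15 B, and at 33.0, 32.3, 31.4, 32.6, 36.2, 29.5 and 35.1 CPM on the somatic side of the same pools. The sides of these 7 pools did not overlap. In D15 pool A, not in the test, HK1 was at 51.9 against 42.5 CPM, a smaller gap than in the 7 pools. The log2 difference of HK1 was 1.17 (SE 0.11, adjusted p = 1.2e-05, edgeR). HK2 was also higher on the developmental side (0.85, SE 0.18, adjusted p = 0.0020, edgeR), with values of 3.84 to 11.1 CPM against 2.40 to 6.20 CPM, and differed little on D9 (4.84 against 4.10 CPM and 3.84 against 4.04 CPM). The HK2 value rests on as few as 29 UMIs on the somatic side of a pool.

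SLC2A1 was at 187 and 166 CPM on the developmental side of the D9 pools against 80.1 and 88.9 CPM on the somatic side. It was at 93.9 and 114 against 62.2 and 53.4 CPM on D11, at 136 and 55.4 against 92.6 and 48.1 CPM on D13, and at 53.7 against 60.3 CPM in D15 pool B. The developmental side was thus the higher in all 6 pools of D9 to D13 and the lower in D15 pool B, while D15 pool A, which was not in the test, had 46.6 against 45.1 CPM. The log2 difference over the 7 pools was 0.68 (SE 0.16, adjusted p = 0.0031, edgeR). SLC2A3 was at 99.1 to 141 CPM on the developmental side and 73.8 to 121 CPM on the somatic side, higher in 6 of 7 pools (0.31, SE 0.07, adjusted p = 0.0025, edgeR). The call of SLC2A3 was lost with no filter on genes (adjusted p = 0.014) and with sides at 1 more marker (0.013) (edgeR).

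PGK1 and ENO1 were higher on the developmental side in 7 of 7 pools (0.49, SE 0.07, adjusted p = 1.7e-04, and 0.43, SE 0.06, adjusted p = 9.3e-05, edgeR). In D15 pool A, not in the test, ENO1 was at 969 CPM on the developmental and 984 CPM on the somatic side. PKM was lower there in 7 of 7 pools, with log2 differences from −0.53 to −0.18 (−0.31, SE 0.05, adjusted p = 2.6e-04, edgeR). PFKP was lower in 6 of 7 pools and did not pass (−0.22, SE 0.09, adjusted p = 0.050, edgeR).

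**Figure D3:**
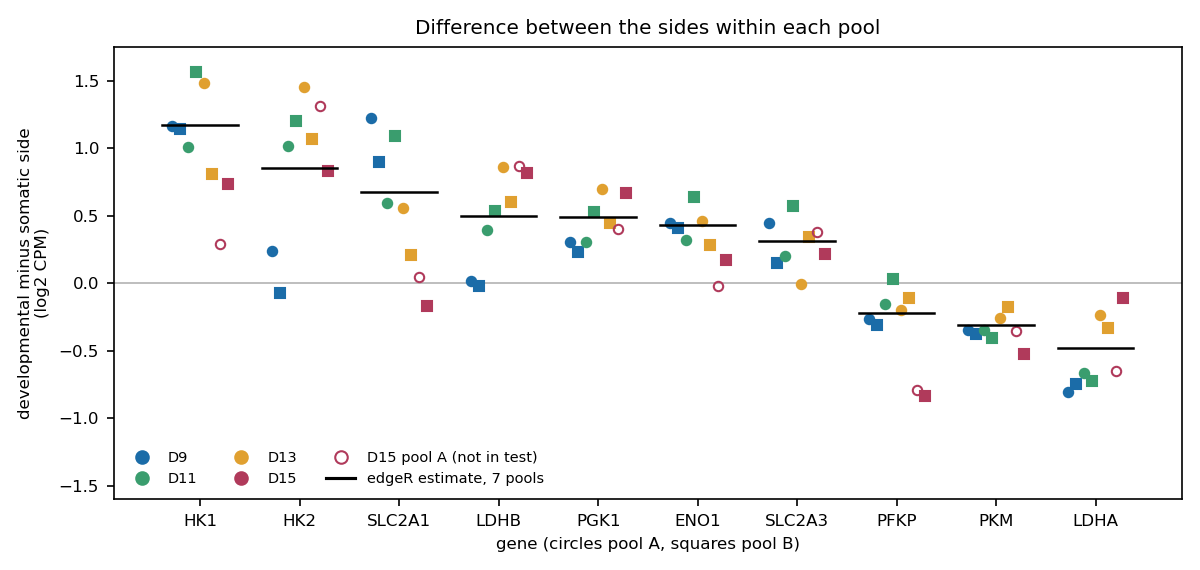
Difference in log2 CPM between the developmental and the somatic side of each pool (vertical axis) for the 10 genes, coloured by day, with circles for pool A, squares for pool B, an open circle for D15 pool A, which was not in the test, and a black line at the edgeR estimate over 7 pools. HK1 lies above 0 in every pool, PKM and LDHA lie below 0 in every pool, and SLC2A1 ranges from 1.22 in D9 pool A to −0.17 in D15 pool B.

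The 2 LDH subunits lay on opposite sides. LDHA was at 692, 656, 637, 574, 856, 439 and 678 CPM on the developmental side, in the pool order given for HK1, and at 1212, 1101, 1013, 950.1, 1006, 553 and 731 CPM on the somatic side. It was lower on the developmental side in 7 of 7 pools (−0.48, SE 0.10, adjusted p = 0.0016, edgeR). LDHB was at 1145, 1172, 1183, 1154, 1388, 809 and 1207 CPM on the developmental side and at 1130.5, 1189, 902, 796, 764, 535 and 685 CPM on the somatic side. LDHB was level between the sides on D9 and higher on the developmental side in the other 5 pools (0.50, SE 0.12, adjusted p = 0.0035, edgeR). Without D11 pool B, D13 pool A, D13 pool B or D15 pool B the call was lost, at an adjusted p of 0.013 to 0.017 (edgeR).

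The ratio of LDHB to LDHA was 1.62 to 2.01 on the developmental side and 0.759 to 1.08 on the somatic side of the 7 pools, with no overlap. The log2 ratio was higher on the developmental side by 0.98 ± 0.18 (SD, n = 7 pools), in 7 of 7 pools (two-sided exact sign-flip permutation test p = 0.0156, the smallest that 7 pools allow, adjusted over the 3 ratios 0.0469). In D15 pool A, with its 49 somatic cells, the ratios were 2.84 and 0.989. On the somatic side the ratio on D15 (0.937 in pool B) stood where it had on D9 (0.932 and 1.08), and the whole pools of D0 to D5, which held no cell of the developmental side, ranged from 0.719 to 1.22. In the whole pools of D7, where 0.232% and 0.999% of cells were on the developmental side, the ratio was 1.29 and 1.17, above every value of the somatic side from D9 on. The ratio of D5 pool B (1.22), with 0 cells on the developmental side, also lay above all values of the somatic side from D9 on. Whole pools also hold cells between the 2 sides (298 and 212 cells in D7 pools A and B). Such cells are left out of the somatic side, so these whole pools and the somatic side are not like sets of cells. The SLC2A3 to SLC2A1 ratio differed between the sides by −0.36 ± 0.45 on the log2 scale (p = 0.0781, adjusted 0.117) and the HK2 to HK1 ratio by −0.31 ± 0.56 (p = 0.219, adjusted 0.219), neither passing the same exact test over 7 pools. The test of ratios between sides was chosen after the values were seen. For LDHB to LDHA its p restates the differences of the 2 subunits given above. How many other pairs of genes would reach the same p was not tested.

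**Figure D4:**
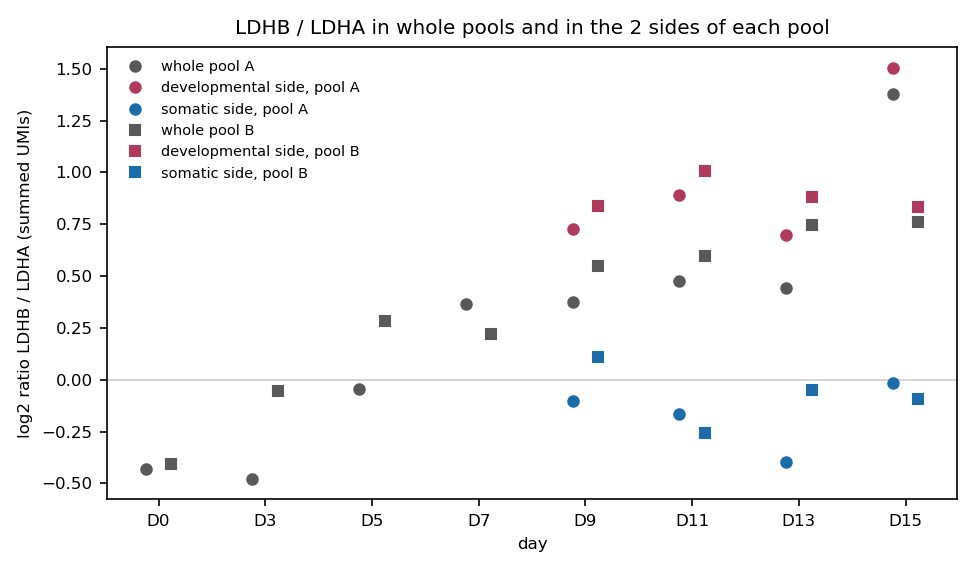
Log2 ratio of LDHB to LDHA in summed UMIs (vertical axis) against day, for whole pools (grey), the developmental side (red) and the somatic side (blue), with circles for pool A and squares for pool B. The whole pools climb from −0.43 and −0.41 on D0, and from D9 on the developmental side lies between 0.70 and 1.51 and the somatic side between −0.40 and 0.11.

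Whether the difference between sides depended on the day was tested as an interaction. None of the 10 members passed with edgeR (5 had an unadjusted p below 0.05), where 0.0% of all genes passed, and LDHA and LDHB came closest (adjusted p = 0.078 and 0.090). With DESeq2 on the same sums, 2 members passed, LDHA (adjusted p = 8.0e-10) and LDHB (adjusted p = 3.0e-07), among 1176 genes. With sides at 1 more marker neither passed in edgeR (LDHA adjusted p = 0.42, LDHB adjusted p = 0.045). In the values, the LDHA difference was −0.81 and −0.75 on D9, −0.67 and −0.73 on D11, −0.23 and −0.34 on D13 and −0.11 in D15 pool B, and the LDHB difference went from 0.02 and −0.02 on D9 to 0.82 in D15 pool B. In D15 pool A, which was not in the test, the LDHA difference was −0.65, outside the range of D13 and D15 pool B, and the LDHB difference was 0.87.

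The counts of other genes that follow stand beside 26.8% of all genes called higher and 26.7% called lower from D0 to D15, and 35.0% called each way between the sides, and with 5 to 15 genes tested a list they are descriptions.

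Among 15 other enzymes of glycolysis, 13 were tested and 2 rose from D0 to D15. They were ENO2, the neuronal enolase, from 4.80 and 5.12 CPM to 19.8 and 24.3 CPM (log2 fold change 2.09, adjusted p = 4.7e-06), and GPI, glucose 6-phosphate isomerase, from 40.7 and 42.2 to 71.2 and 66.9 CPM (0.67, adjusted p = 0.0040, edgeR). None fell by the threshold, and the list's median was −0.27. Between the sides, 5 of these enzymes were higher and 4 lower on the developmental side, the largest differences being those of ENO2 (1.62), PFKFB3 (−1.15), an activator of phosphofructokinase, and BPGM (−1.11), which makes 2,3-bisphosphoglycerate. GAPDH differed by 0.07 between the sides (adjusted p = 0.16, edgeR).

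Among 6 tested other members of the transporter family, 2 rose and 3 fell from D0 to D15. SLC2A14 rose (7.43, from 7 UMIs in D0), and SLC2A10 (−2.28, from 9.82 and 11.1 to 2.35 and 2.14 CPM) and SLC2A12 (−2.28, from 4.14 and 4.19 to 0.934 and 0.864 CPM) fell. On the developmental side SLC2A14 was higher (1.89), and SLC2A10 (−1.51) and SLC2A13 (−0.62) were lower, with 1 gene of the list higher and 3 lower in all.

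Of the 5 genes of lactate transport, 2 rose and 1 fell from D0 to D15. SLC16A1, which encodes the lactate carrier MCT1, rose from 18.1 and 17.3 CPM on D0 to 87.8 and 92.5 on D9 and 151 and 146 on D15 (3.00, adjusted p = 3.4e-08, edgeR). EMB, which encodes embigin, a partner of these carriers, rose from 1.10 and 1.22 to 13.02 and 13.21 CPM (3.43), and SLC16A7, which encodes MCT2, fell from 18.3 and 18.2 to 1.66 and 1.87 CPM (−3.43). Between the sides 3 were higher and 2 lower on the developmental side, among them SLC16A3, which encodes the lactate exporter MCT4 (−2.34, adjusted p = 8.4e-06, edgeR), EMB (2.05) and SLC16A7 (−1.43).

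Of the 8 genes of the pentose phosphate pathway, which branches off at glucose 6-phosphate and yields NADPH and ribose, 2 rose and 3 fell from D0 to D15. Among the genes that fell, H6PD fell by 1.90 and PGLS fell by 1.17 on the log2 scale. Between the sides 5 genes were higher and 3 lower on the developmental side, with H6PD (−2.53) among the lower and the transketolase gene TKT (1.19) and the transaldolase gene TALDO1 (0.85) among the higher.

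Of 11 tested genes of pyruvate entry into mitochondria, 2 rose and 4 fell from D0 to D15. PDK2 and PDK3 encode kinases that switch off pyruvate dehydrogenase. PDK2 fell from 33.1 and 32.9 to 8.68 and 9.09 CPM (−1.96) and PDK3 rose from 2.76 and 3.32 to 10.97 and 12.02 CPM (1.86). MPC2, which encodes a subunit of the mitochondrial pyruvate carrier, fell from 169 CPM in both pools to 61.8 and 72.4 CPM (−1.40, adjusted p = 6.1e-06, edgeR). Between the sides 5 were higher and 4 lower on the developmental side, with PDK2 at −1.69, PDK3 at 1.47 and PDHB, a subunit of pyruvate dehydrogenase, at 0.87.

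**Figure D5:**
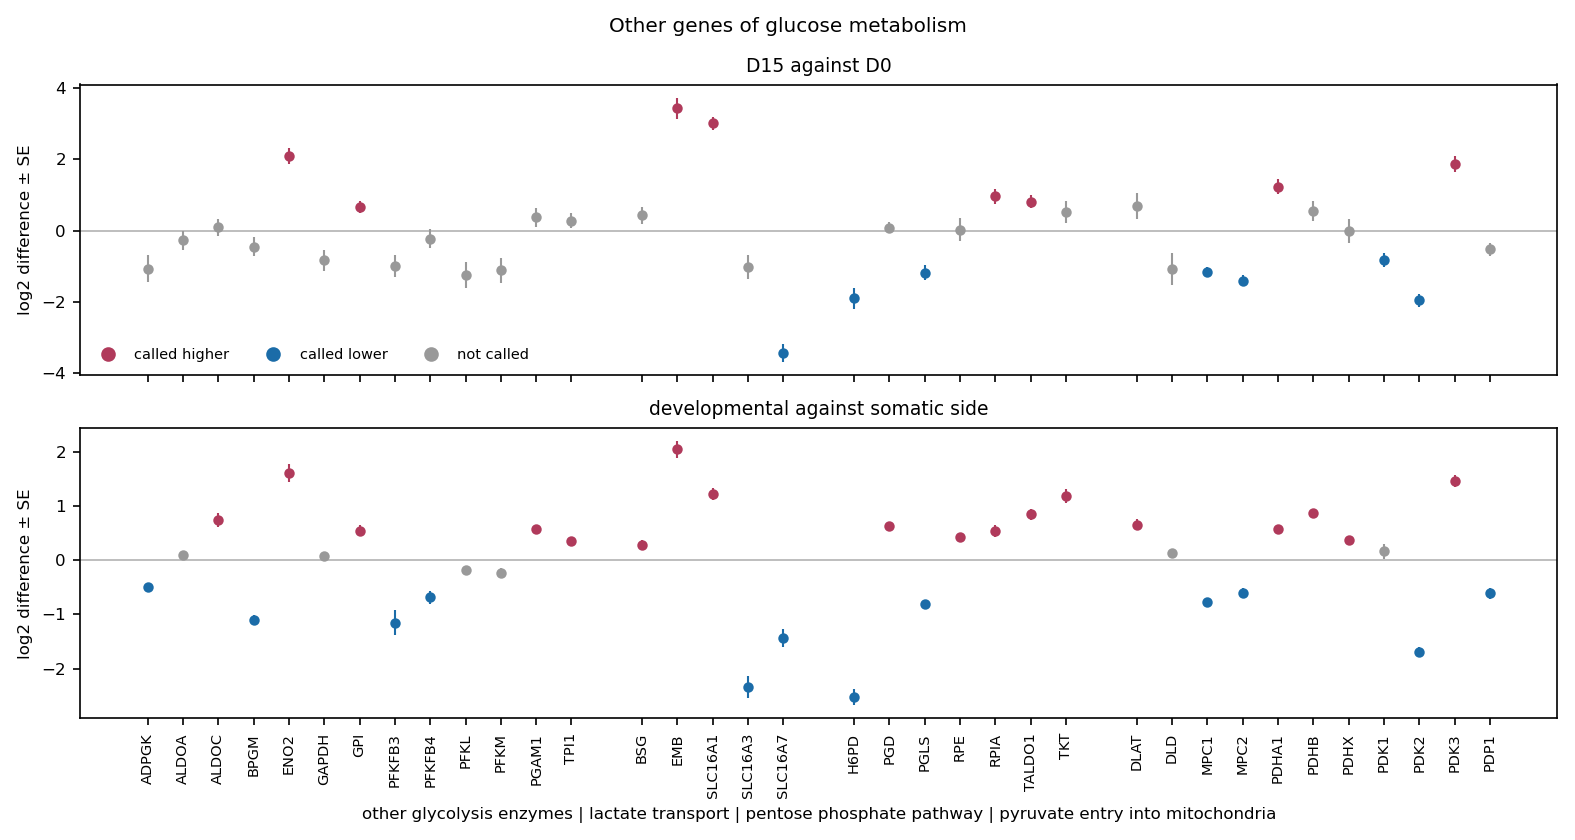
Log2 difference with its standard error (vertical axes) for tested genes of 4 other lists, for D15 against D0 in the upper panel and the developmental against the somatic side in the lower panel. Red marks genes called higher, blue genes called lower and grey genes not called. SLC16A1 and EMB lie above and H6PD and PDK2 below 0 in both panels.

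Hypoxia-inducible genes outside glycolysis did not move as 1 group. Of 15 tested, 3 rose and 7 fell from D0 to D15, with a median of −0.55, where 26.8% of all genes were called higher and 26.7% lower. EGLN3, a prolyl hydroxylase, rose from 0.0360 and 0.0136 CPM to 20.4 and 19.6 CPM (9.50, from 8 UMIs in D0), NDRG1 fell from 15.6 and 18.1 to 3.62 and 2.41 CPM (−2.56) and CA12, a carbonic anhydrase, from 11.05 and 12.04 to 2.29 and 2.16 CPM (−2.44). Between the sides 2 were higher and 7 lower on the developmental side, where 35.0% of all genes were called each way, led by P4HA2, a collagen prolyl hydroxylase (−3.77), ADM, which encodes adrenomedullin (−2.47), and NDRG1 (−2.37). Collagen genes are among the somatic markers that set the sides, so the difference of P4HA2 is not independent of this split.

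Of 12 tested regulators of glycolysis, 3 rose and 4 fell from D0 to D15. MYC, one of the list, was also a transfected factor, and its counts were not split into delivered and endogenous RNA. MYCN had 0 UMIs in both D0 pools and 15.97 CPM on D15, at least 1670-fold higher when D0 is set to 3 UMIs over both pools. LIN28B, also one of the developmental markers, had 0 UMIs on D0 and was at least 5731-fold higher by the same floor, and MYCL rose from 0.0780 and 0.0408 to 4.79 and 4.37 CPM (6.16). Between the sides 4 of 11 were higher and 5 lower on the developmental side, with MYCN at 3.49, EPAS1, which encodes a hypoxia-inducible factor subunit, at −2.83, and ARRDC4, a glucose-responsive arrestin gene, at −2.34.

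Across the 16 pools, the profiles most like those of 4 members were sought among 3612 genes at 50 CPM or more in at least 1 pool, by Pearson's r of log2(CPM + 1). The pools share days and depth, so these values are descriptions. HNRNPA0 (r = 0.967), MRS2, TGIF1 and COMMD2 (0.952) were among the 5 genes most like SLC2A1, and MYH10 (0.970), APOC1, ID1, RASGRP2 and MIDN (0.932) most like SLC2A3. NT5C3B (0.940), ARHGDIA, PRKAG1, IMPDH1 and SCAMP3 (0.927) were most like LDHA, and CCT7 (0.955), AHSA1, MDH2, AATF and RNF126 (0.931) most like LDHB. None of the genes named here stood on more than 1 of these lists.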

How the data were processed

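The single-cell RNA-seq tables of the time course were used. The authors counted UMIs with Cell Ranger 2.2 on hg38 (10x 3′ chemistry), and deposited raw UMI counts per gene and barcode, before their filters on cells and genes and with no normalization. Aliquots of 1 pool were added, which turned 22 libraries into 16 pools (2 per day, grouped by the labels' day). Barcodes with under 1000 genes or over 10% of mitochondrial UMIs were left out, and genes found in at least 5% of the remaining cells were tested. Doublets were not called. For the sides only, an alternative left out the 5% of cells with the most UMIs. The comparisons of days, the day ratios and the LDH shares of single cells were not checked in this way. Counts were compared with edgeR 4.0.16 (limma 3.58.1, R 4.3.3; TMM, quasi-likelihood, Benjamini-Hochberg over all genes tested, all 16 pools in 1 fit). Calls needed an adjusted p under 0.01 and a change of over 0.25 on the log2 scale. Ratios were compared by exact permutation tests (scipy 1.17.1). The fit over days (for D15 against D0) and the fit of sides were tested on simulated counts. CPM divides by the summed UMIs of a pool, so a pool's few abundant genes can shift all others, and TMM was used in the tests for this reason.

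The members and gene lists were chosen with earlier results of these data known. Members are all named, as are up to 3 genes of each list with the largest called change, and the 5 genes most like 4 members. Nothing in the sources used here pairs pool letters across days: the correlation of the gap between pools over the 28 pairs of days ranged from −0.41 to 0.81 (median −0.027). Pools were separate sets of chips of 1 cell line, so p-values over pools measure the spread between such pools only. The exact test of early against late days takes the ordered days of 1 course as units. Alternatives were DESeq2 1.42.0, its size factors in edgeR, total UMIs, no filter on genes, a replicate block, all barcodes, only the pools compared, other limits of the sides and each pool left out in turn. Gene coordinates are those of gencode v44 and promoters those of RefSeq. Mass spectrometry data were not analysed here, and 2 genes that the naming rule selects are not reported here. Figures were drawn with matplotlib 3.10.9.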

Additional observations from a re-analysis of the deposited data

Results flagged for a closer look

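In the difference between the developmental and the somatic side, PFKP in D15 pool B lay far from the other 6 pools, at −0.83 on the log2 scale against −0.31 to 0.03. It was the only one of the 26 gaps examined, in 13 groups of 7 values, to stand out by Dixon's criterion, which chance exceeds in about 1 in 20 groups. D15 pool A, left out of the comparison for its 49 somatic cells, had a PFKP difference of −0.79. In D15 pool B, PFKP was at 32.4 CPM on the developmental side and 57.7 CPM (270 UMIs) on the somatic side.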

How the results depend on the processing

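Named changes between days kept their direction in all alternatives, and kept their call in 271 of 322 fits over 14 changes. Most fits without 1 pool left out a pool of a day outside the comparison, which hardly moves the change itself. Without a pool of the compared days, a larger share of calls was lost, as given above for SLC2A1, HK1, HK2, ENO1 and LDHB. For the sides, 134 of 140 fits over the 10 members kept direction and call. The count of members called between D3 and D0 was 4, but 2 with total UMIs as the scale and 0 in edgeR with the 4 pools of the 2 days alone, where 0 of all genes were called although 5431 had an unadjusted p below 0.05. With those 4 pools alone, the counts were 5 between D15 and D9 and 10 between D15 and D0, against 2 and 4, where 49.8% and 74.0% of all genes were called. With no filter on genes, 4 members were called between D9 and D3 in place of 2, and with DESeq2 2 members passed the interaction of side and day in place of 0 (1176 of all genes in place of 0). The cause of these shifts was not tested. When 1 pool was left out at a time, the counts of members ranged from 4 to 7 (any change over the days), from 3 to 8 (adjacent intervals), from 2 to 4 (D3 against D0), from 2 to 3 (D9 against D3), from 0 to 3 (D15 against D9), from 2 to 7 (D15 against D0) and from 8 to 9 (sides). The early to late shift of the log2 ratio ranged from 0.71 to 1.04 for SLC2A3 to SLC2A1, from 0.66 to 0.81 for LDHB to LDHA and from −0.86 to −0.50 for HK2 to HK1. The pool letter as a replicate block, a number the pools merely share, gave 5 members changed over the days, 7 changes over adjacent intervals and 5 members called between D15 and D0, and the LDHB to LDHA shift stayed at 0.73, since a balanced block cannot move it. With 2 pools a day, the gaps between the pools of D3 and of D13 limit the precision of values from these days.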
